A study of Homo sapiens with 12 samples.

Results

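The OAS genes encode the 2'-5'-oligoadenylate synthetase family: OAS1, OAS2, OAS3 and the OAS-like gene OASL. They were taken as the rows of the gene tables with those names, 4 of 60106 genes, and no other row carries a name beginning with OAS. They had been chosen with their response to FOXA1 knockdown already known, so that response is described below without a test. OAS1, OAS2 and OAS3 bind double-stranded RNA and then join ATP molecules into short 2'-5'-linked oligoadenylates (2-5A). 2-5A is a second messenger of the antiviral response that leads to the breakdown of viral and cellular RNA. OASL has lost the synthetase activity and carries ubiquitin-like repeats, and it is known for enhancing signalling through the RNA sensor RIG-I. All 4 are classical interferon-stimulated genes, switched on through the ISGF3 complex.

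The 12 libraries came from PC3 and VCaP, established human lines of prostate cancer, 72 h after transfection with siRNA against FOXA1 (siFOXA1) or non-targeting siRNA (NSI), with 3 libraries in each of the 4 groups. FOXA1 is a forkhead transcription factor of prostate epithelium. PC3 cells received 20 nM siRNA in RPMI-1640 and were sequenced from polyadenylated RNA, and VCaP cells received 40 nM siRNA in DMEM and were sequenced from total RNA. All groups were transfected with RNAiMax, so none stands for untransfected cells. The line cannot be told apart from dose, medium, library kit and the use of strand in counting, which was off in PC3 and on in VCaP. No label says whether replicates were separate cultures, so a p-value measures only the spread between these libraries, which may be technical.

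Library totals were 123140099 to 188226483 counts in PC3 and 48187047 to 59839211 in VCaP. FOXA1 was lower after its knockdown in both lines. In PC3 the NSI libraries had 301, 242.1 and 262.7 CPM (counts scaled to a common depth) and the siFOXA1 libraries 167.6, 182.7 and 166.8. That is a log2 fold change of −0.65 (SE 0.10, n = 3 against 3, edgeR quasi-likelihood test, Benjamini-Hochberg adjusted p = 0.00222). In VCaP the NSI libraries had 447.7, 458.4 and 539.2 CPM and the siFOXA1 libraries 85.85, 73.67 and 83.5, a log2 fold change of −2.60 (SE 0.09, edgeR adjusted p = 1.84e-07). All 4 epithelial markers (EPCAM, KRT8, KRT18, CDH1) averaged at least 1 CPM in every group. KLK3, ERG and TMPRSS2 did so in VCaP and none of them did in PC3.

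OAS1, OAS3 and OAS2 lie side by side on chromosome 12, all on the plus strand, and OASL lies apart on the same chromosome. On GRCh37, the build of the deposited tables, OAS1 (ENSG00000089127.12_3) spans chr12:113344582-113371027, OAS3 (ENSG00000111331.12_2) spans chr12:113376157-113411054 and OAS2 (ENSG00000111335.12_2) spans chr12:113416200-113449528. The gaps are 5129 bases between OAS1 and OAS3 and 5145 bases between OAS3 and OAS2. OASL (ENSG00000135114.12_2) is on the minus strand at chr12:121456914-121477045, 8.01 Mb beyond OAS2. The exons counted add up to 4116 bases for OAS1, 6243 for OAS2, 7855 for OAS3 and 3266 for OASL. No exon of OAS2, OAS3 or OASL overlaps an exon of another gene. In OAS1, 92 bases, 2.24% of its exons, lie opposite the antisense gene RP1-71H24.1.

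RefSeq promoters were available here for OAS1 and OAS3 (build GRCh38.p14, a different build from the tables). They are shown because OAS1 and OAS3 are neighbours that moved together in PC3 and in opposite directions in VCaP. The 250 bases before each start site follow, 5′ to 3′ on the plus strand. Capitals mark each match to AANNGAAA, a core bound by interferon regulatory factors, searched on both strands.
OAS1 promoter, chr12:112906712-112906961: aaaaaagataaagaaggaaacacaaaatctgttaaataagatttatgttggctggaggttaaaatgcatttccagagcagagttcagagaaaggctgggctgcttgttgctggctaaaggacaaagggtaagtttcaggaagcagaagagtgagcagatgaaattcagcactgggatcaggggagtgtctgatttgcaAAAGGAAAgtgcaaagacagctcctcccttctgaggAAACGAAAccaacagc
OAS3 promoter, chr12:112938224-112938473: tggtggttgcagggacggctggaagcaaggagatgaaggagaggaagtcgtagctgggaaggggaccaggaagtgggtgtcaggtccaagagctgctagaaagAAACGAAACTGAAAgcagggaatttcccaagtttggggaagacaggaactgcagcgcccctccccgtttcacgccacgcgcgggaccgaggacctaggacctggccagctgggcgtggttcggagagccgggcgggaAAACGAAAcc
Motifs were searched on both strands in 300 bases, which add the first 50 bases after the start site. AANNGAAA occurs in OAS1 with its first base at −52 and −16 from the start, and in OAS3 at −147, −141 and −10, where the matches at −147 and −141 overlap. The same 8-base core occurs in 22.8% of the 35116 RefSeq promoters of that length. The longer core GAAANNGAAA overlaps AANNGAAA and is part of the interferon-stimulated response element bound by ISGF3. It occurs in OAS3 at −143 and −12, was not found in OAS1, and occurs in 3.57% of all promoters. The pattern fixes the spacing between its GAAA parts and can miss an element of other spacing. Its absence from OAS1 is therefore not read as the lack of such an element. The longest run of letters common to both promoters is AAACGAAACCA, at −16 in OAS1 and −10 in OAS3. It was picked from these 2 sequences, and 5 of the 35116 promoters hold it, these 2 included. The STAT core TTCNNNGAA occurs once in OAS1, at −168, and in 7.66% of all promoters. The forkhead core TGTTTAC, present in 3.42% of all promoters, was found in neither, and its variant TGTTTGC, present in 3.89%, was found once, on the minus strand of OAS1 from position 32 after the start.

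In PC3 cells all 4 OAS genes were higher in siFOXA1 than in NSI, with no overlap between the groups. OAS2 and OAS3 rose most, 14-fold and 14.1-fold, followed by OAS1 at 8.94-fold and OASL at 5.84-fold. The test called 4 of the 4 higher at an adjusted p under 0.05, and 15.0% of all 26435 genes tested in PC3 were called higher. With the replicate number as a block that share was 21.7%. Since this contrast chose the genes, nothing is read from that count. In bulk RNA a larger share of responding cells and more RNA per cell cannot be told apart, here and in every result below.

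**Figure D1:**
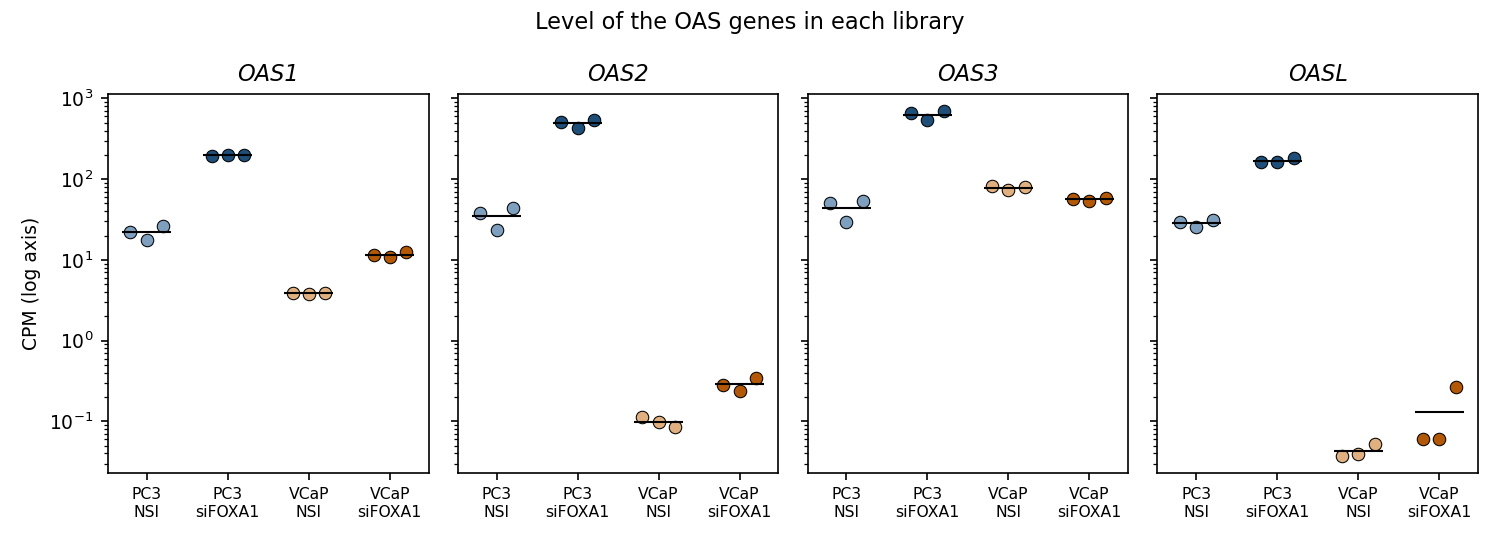
Level of each OAS gene in each library, in CPM on a log axis. Points are the libraries of a group and the line is their mean (n = 3). In PC3 every siFOXA1 library lies above every NSI library for all 4 genes. In VCaP, OAS3 lies lower in siFOXA1, and OAS2 and OASL stay under 1 CPM.

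OAS1, a small synthetase with one OAS domain, had 22.06, 17.53 and 26.25 CPM in PC3 NSI, against 193.6, 197 and 201.6 CPM in siFOXA1. The log2 fold change was 3.16 (SE 0.14), and the spread of the siFOXA1 libraries (197.4 ± 3.984 CPM, SD, n = 3) was small beside the change. OAS2, a synthetase with a duplicated OAS domain, had 37.82, 23.55 and 43.47 CPM in NSI, against 510.6, 429.8 and 536.7 CPM after knockdown, a log2 fold change of 3.81 (SE 0.22). The lowest OAS2 library in each group was replicate 2. OAS3 is the largest member, with a triplicated OAS domain, and is known as the main source of 2-5A during many virus infections. Its levels were 50.62, 29.85 and 53.13 CPM in NSI, against 653.6, 535 and 704.7 CPM after knockdown, a log2 fold change of 3.82 (SE 0.22). OASL, the member without synthetase activity, had 29.76, 25.46 and 31.42 CPM in NSI, against 163.2, 162.7 and 183.3 CPM after knockdown. Its log2 fold change of 2.55 (SE 0.10) was the smallest of the 4.

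The OAS genes also shared a pattern among the control libraries. PC3 NSI replicate 2 was the lowest library of its group for all 4 genes, with deviations from the group mean on the log2 scale of −0.30 for OAS1, −0.51 for OAS2, −0.52 for OAS3 and −0.17 for OASL. The median deviation of 20 other interferon-stimulated genes in that library was −0.33, and that of all genes tested was 0.00. Replicate 3 stood above the mean for all 4, by 0.27, 0.36, 0.30 and 0.13 in the same order, with a median of 0.22 for the 20 genes. In siFOXA1 the widest deviation of any member was −0.23, for OAS3 in replicate 2. These deviations are small beside the changes between the PC3 groups: leaving out any 1 of the 6 PC3 libraries gave log2 fold changes of 3.03 to 3.3 for OAS1, 3.6 to 3.99 for OAS2, 3.6 to 3.96 for OAS3 and 2.46 to 2.6 for OASL.

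In VCaP cells the family split. OAS1 was 2.93-fold higher in siFOXA1, OAS3 was 1.43-fold lower, OAS2 was barely transcribed but higher, and OASL was at the limit of detection. Of the 4 genes, 3 passed the filter on low counts, and the test called 2 higher and 1 lower. OAS2 passed the filter only through the siFOXA1 libraries, where it is high. Of the 22925 genes tested in VCaP, 22.5% were called higher and 23.3% lower, and again nothing is read from the members' count.

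OAS1 had 3.919, 3.826 and 3.877 CPM in VCaP NSI, against 11.5, 10.75 and 12.58 CPM in siFOXA1, a log2 fold change of 1.55 (SE 0.09). The groups did not overlap, but the highest VCaP siFOXA1 library remained below the lowest PC3 NSI library. OAS3 had 81.38, 74.42 and 80.62 CPM in NSI, against 56.64, 54.04 and 58.61 CPM after knockdown, without overlap, and a log2 fold change of −0.51 (SE 0.06). Its neighbours on either side were higher in the same libraries. OAS2 rested on 6, 5 and 5 counts in NSI, against 14, 12 and 18 with siFOXA1. Scaled to depth, the summed counts gave a ratio of 2.93 (1.62 to 5.56, exact 95% interval for counting error only). OASL had 2, 2 and 3 counts in NSI, against 3, 3 and 14 counts after knockdown. No fold change is given for it, since all but 1 of these libraries are at or under 3 counts and the groups touch.

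The difference between the lines, the VCaP change minus the PC3 change from a fit of all 12 libraries, was −1.58 on the log2 scale for OAS1 (SE 0.17), −2.28 for OAS2 (SE 0.68) and −4.31 for OAS3 (SE 0.24). For FOXA1 itself, which fell further in VCaP, the same difference was −1.93 (SE 0.15, edgeR adjusted p = 3.12e-07). OAS2 had the widest error and the fewest VCaP counts of the 3. For OAS1 the difference was −1.81 without PC3 NSI replicate 3. OAS3 is the one member whose fold changes had opposite signs in the 2 lines.

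**Figure D2:**
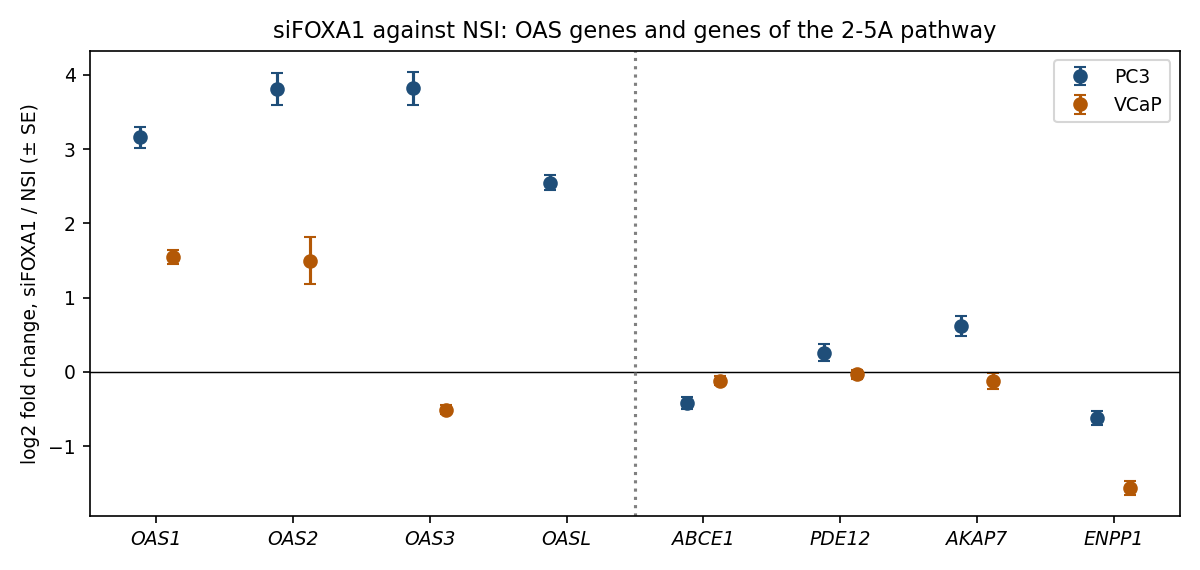
Log2 fold change of siFOXA1 against NSI (± SE) for the OAS genes, left of the dotted line, and 4 genes of the 2-5A pathway, in PC3 and VCaP (n = 3 against 3). OASL has no VCaP point because it did not pass the filter on low counts. The PC3 points of the OAS genes lie between 2.55 and 3.82, and OAS3 in VCaP lies at −0.51.

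Without knockdown the 2 lines also differed in which OAS genes they transcribed, a contrast that played no part in choosing them. OAS1 was 5.64-fold lower in VCaP NSI than in PC3 NSI (log2 fold change −2.50, SE 0.16, edgeR adjusted p = 3.46e-08). OAS3 was 1.78-fold higher in VCaP (0.83, SE 0.19, edgeR adjusted p = 0.00131, with log2 fold changes of 0.6 to 1.12 over 12 other settings). OAS2 was far lower in VCaP (edgeR adjusted p = 6.57e-10), and the depth-scaled ratio of PC3 to VCaP counts was 363 (224 to 636, exact 95% counting interval). OASL was lower as well (edgeR adjusted p = 1.24e-11), with a ratio of 676 (328 to 1681). VCaP NSI held 6, 5 and 5 counts of OAS2 and 2, 2 and 3 of OASL. Both passed the filter on low counts only through the PC3 libraries, where they are high, so their calls are a description. The 1 higher and 3 lower calls of the members stand beside 42.4% of 28132 genes called higher and 44.6% called lower between the lines. Kit, strand use, medium and dose differ between the lines together with the line, and their part in this difference was not tested.

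Dividing CPM by length in kilobases puts the members on one scale. In PC3 NSI the level per kilobase was highest for OASL (8.84 ± 0.943, SD, n = 3). OAS3 (5.67), OAS2 (5.60) and OAS1 (5.33) followed with overlapping ranges. In PC3 siFOXA1 the order was OAS3 (80.35) and OAS2 (78.87), which overlapped, then OASL (51.98), then OAS1 (47.96). OASL went from 35.3% of the summed family level to 20.1%, while OAS2 went from 21.7% to 30.4% and OAS3 from 22.0% to 30.9%. In VCaP NSI the family was nearly all OAS3, with 10.03 per kilobase or 91.2% of the sum, followed by OAS1 with 0.941. OAS2 and OASL, at 0.0159 and 0.0131, did not separate. In VCaP siFOXA1 OAS3 held 71.2% and OAS1 27.9%. The summed level rose in PC3 from 25.44 ± 5.22 to 259.2 ± 23.2 per kilobase (SD, n = 3), with no overlap. In VCaP it was 11.0 ± 0.498 in NSI and 10.09 ± 0.554 in siFOXA1, with overlapping ranges, while the shares of OAS1 and OAS3 did not overlap between the groups.

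**Figure D3:**
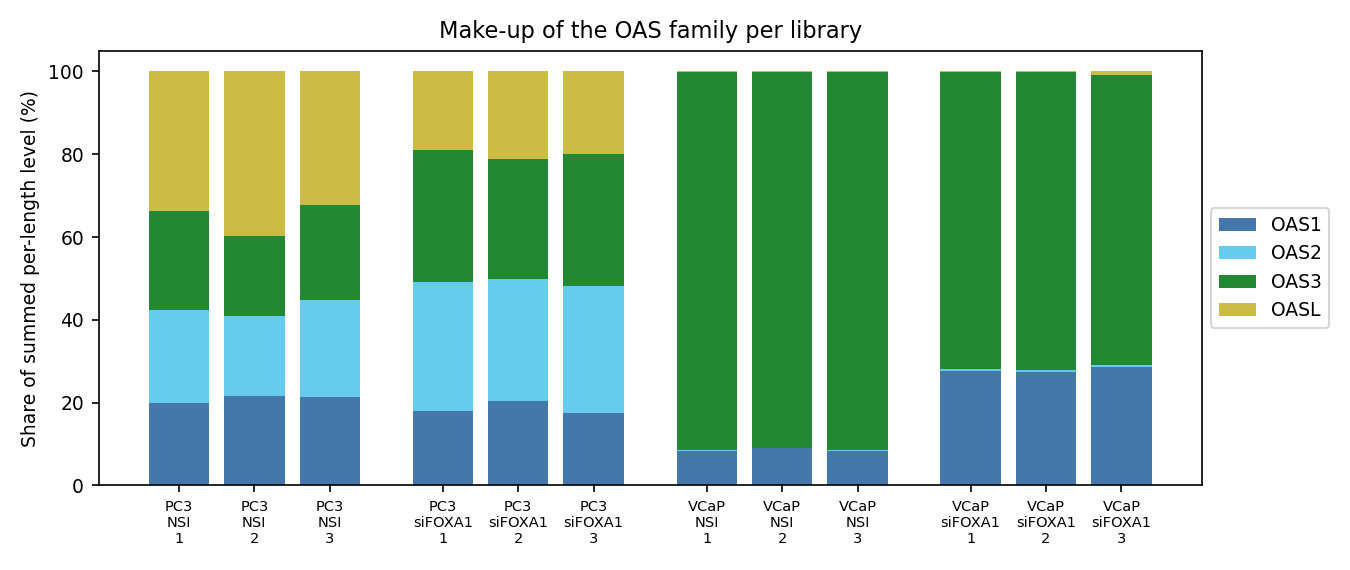
Share of each OAS gene in the summed per-kilobase level of the family, in percent, for each library. PC3 libraries hold all 4 genes in every library, and VCaP libraries hold OAS3 and OAS1 with OAS2 and OASL under 1% each. The 3 replicates of a group have a similar make-up, though the OASL share in PC3 NSI runs from 32.4% to 39.7%.

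Besides the OAS enzymes themselves, 4 genes of the 2-5A pathway were described as a list, all of them known to act against it. ABCE1, best known as a ribosome recycling factor, fell in PC3 (−0.42, SE 0.08, edgeR adjusted p = 0.0077) and was at −0.12 in VCaP (SE 0.06, adjusted p = 0.152). A difference between the lines did not pass the test (0.32, SE 0.12, adjusted p = 0.068; with the replicate block, 0.0154). PDE12, a phosphodiesterase that degrades 2-5A, was at 0.26 in PC3 (SE 0.11, adjusted p = 0.104; with the replicate block, 0.00777) and −0.03 in VCaP (SE 0.06, adjusted p = 0.68). AKAP7, whose nuclear isoform holds a 2-5A phosphodiesterase domain, rose in PC3 (0.62, SE 0.14, edgeR adjusted p = 0.012). That call was lost without NSI replicate 3 (adjusted p = 0.0564) or siFOXA1 replicate 1 (adjusted p = 0.0651). In VCaP AKAP7 was at −0.12 (SE 0.11, adjusted p = 0.386). VCaP minus PC3 was −0.72 (SE 0.17, edgeR adjusted p = 0.00734).

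ENPP1 encodes an ectoenzyme best known for hydrolysing extracellular ATP and cGAMP, and it can also cleave 2-5A. It fell in both lines. In PC3 it went from 13.57, 12.9 and 12.57 CPM in the controls to 8.709, 7.558 and 9.311 CPM after knockdown (−0.62, SE 0.10, edgeR adjusted p = 0.00308). In VCaP it went from 13.17, 12.85 and 13.92 CPM to 4.92, 4.54 and 4.364 CPM (−1.56, SE 0.09, edgeR adjusted p = 1.24e-06). The fall was larger in VCaP by 0.92 on the log2 scale (SE 0.14, edgeR adjusted p = 0.000192). In all, 1 of the 4 genes rose and 2 fell in PC3, and in VCaP 1 fell and the other 3 did not pass the test. With the replicate block 2 rose and 2 fell in PC3. Over all genes tested 15.0% rose and 12.1% fell in PC3, and 23.3% fell in VCaP, so the VCaP count is at the share of all genes. The list's median log2 fold changes of −0.08 and −0.12 compare with 0.02 over all genes tested in either line.

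The listed genes linked to the sensing of nucleic acids beside OAS, not all of them sensors themselves, also differed between the lines. Of the 10, 6 had a lower and 1 a higher log2 fold change in VCaP than in PC3 by the test of the difference itself, where 11.0% and 11.3% of 30425 genes were called. With library size alone in place of TMM factors, the genes called over all were 2643 higher and 3880 lower, against 3427 and 3333. Of the 10 genes, 9 were tested in PC3, where 7 rose and the other 2 did not pass the test (median log2 fold change 2.09), beside 15.0% of all genes called higher. The largest were IFIH1 (MDA5) at 3.66, DDX58 (RIG-I) at 3.63 and ZBP1, a sensor of Z-form nucleic acid. ZBP1 rose from 9 summed counts to 588, a depth-scaled ratio of 67.8 (35.4 to 149, exact 95% counting interval). Of those 9 counts 7 came from NSI replicate 1, and without it the ratio was 209 (57.6 to 1731). ZBP1 passed the filter on low counts only through the PC3 siFOXA1 libraries, where it is high. Its calls in PC3 and between the lines are therefore a description. In VCaP 8 were tested, of which 2 rose and 2 fell (median −0.10), about the 22.5% and 23.3% of all genes called in each direction there. TMEM173 (STING) at 2.46 and TLR3 at 1.22 rose, and EIF2AK2 (PKR, the kinase that shares double-stranded RNA as ligand with OAS) fell by 0.73. EIF2AK2 had risen by 2.09 in PC3, so its directions in the 2 lines matched those of OAS3, with a difference between the lines of −2.80 (edgeR adjusted p = 5.74e-07).

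The genes of the interferon receptor and ISGF3 pathway, feedback inhibitors included, also differed between the lines. By the same test 6 of 13 had a lower log2 fold change in VCaP and 1 had a higher one. Of the 13, 7 rose in PC3 and the other 6 did not pass the test (median 0.56), where 15.0% of all genes rose. They were led by SOCS1 (3.30) and USP18 (3.09), both feedback inhibitors of interferon signalling, and STAT2 (2.49), a subunit of ISGF3. In VCaP 5 rose and 5 fell (median −0.02), beside 22.5% and 23.3% of all genes. SOCS1 (1.55) and IRF9 (0.63), the DNA-binding subunit of ISGF3, rose there, and USP18 fell by 0.94. SOCS1 rested on 12, 17 and 9 counts in VCaP NSI, against 24, 30 and 54 in siFOXA1. It needed siFOXA1 libraries, where it is high, to pass the filter on low counts. Its VCaP call, among the 5 that rose, is therefore a description. For USP18 the lines differed by −4.00 (edgeR adjusted p = 9.05e-11).

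Of 8 interferon genes 7 averaged under 1 CPM in every group. The exception, picked out after its values were seen, was IFNE, an interferon of epithelia, with 5.18 CPM in PC3 NSI and 4.65 CPM in PC3 siFOXA1 (log2 fold change −0.17, SE 0.15, edgeR adjusted p = 0.432), and it averaged 0 CPM in both VCaP groups. In PC3 4 of the 8 were tested, and IFNL1 and IFNB1 rose, beside 15.0% of all genes called higher. Both passed the filter on low counts only through the siFOXA1 libraries, where they are high, so their calls are a description. IFNB1 had 0, 2 and 0 counts in PC3 NSI and 15, 13 and 20 in siFOXA1, a depth-scaled ratio of 24.9 (6.525 to 211, exact 95% counting interval). Without NSI replicate 2 the NSI libraries held no count. With 3 counts over the group put in their place the ratio was 11.7, and the exact 95% counting interval began at 9.135. Without NSI replicate 3 the ratio was 15.2 (3.98 to 129). IFNL1 had 4, 0 and 1 counts in NSI, against 53, 49 and 61 counts after knockdown, a ratio of 33.8 (14.2 to 105.5), which was 116 (20.5 to 4607) without NSI replicate 1. In the fit of all 12 libraries IFNL1 was called, and IFNB1 was not tested, since it did not pass the filter on low counts. No interferon gene passed the filter in VCaP, where IFNB1 had at most 1 count in any library and so did IFNL1.

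Against 20 classical interferon-stimulated genes other than OAS, the OAS genes lay inside the range in PC3. The list was chosen with earlier results of these data known. All 20 rose there, beside 15.0% of all genes. Their median log2 fold change was 3.65, with a range of 1.98 to 5.00, and the OAS genes had a median of 3.48. MX2 (5.00), a GTPase that restricts viruses at the nuclear pore, CMPK2 (4.59) and RSAD2 (4.53), which makes a chain-terminating nucleotide, led the list. In VCaP 15 of the 20 were tested, 10 rose and 2 fell, beside 22.5% and 23.3% of all genes, and the median was 0.88. Among the 10, EPSTI1 averaged 0.160 CPM in VCaP NSI and 0.373 CPM in siFOXA1. It needed siFOXA1 libraries, where it is high, to pass the filter on low counts, so its call is a description. IFI44 (1.97) and IFIT3 (1.48) rose, and HERC5, the ligase for ISG15, fell by 1.65. HERC5 had risen by 2.62 in PC3, so OAS3 was not alone in falling in VCaP. VCaP minus PC3 was called lower for 16 of the 20, beside 11.0% of all genes, and the other 4 did not pass the test. MX2, among the 16 called, did not pass the filter on low counts in VCaP.

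**Figure D4:**
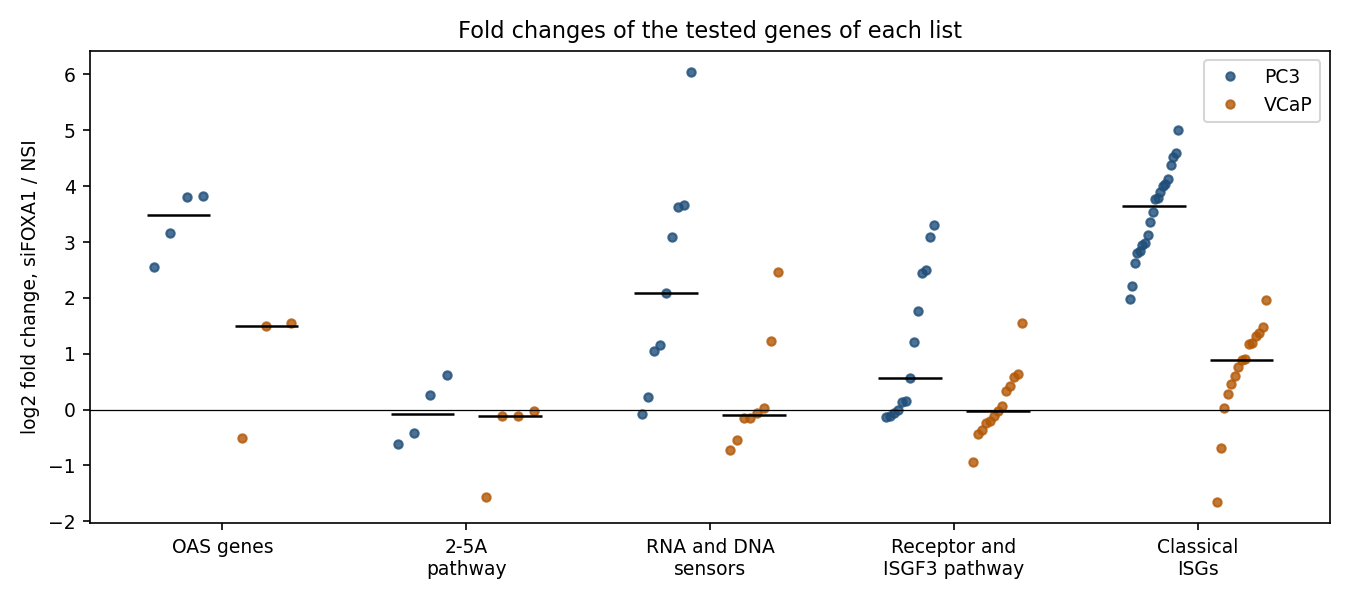
Log2 fold change of siFOXA1 against NSI for each tested gene of the OAS family and of 4 other lists, in PC3 and VCaP. Lines are medians over the tested genes of a list. In PC3 the OAS genes (median 3.48) and the 20 classical interferon-stimulated genes (ISGs, median 3.65) lie well above 0, and in VCaP the values spread on both sides of 0.

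Blood and endothelial markers were near 0 in PC3, where the OAS genes changed most. The 7 blood cell markers summed to 0.742 to 1.06 CPM in PC3 NSI and 0.907 to 0.997 CPM in PC3 siFOXA1, with none of them averaging 1 CPM. In VCaP they summed to 0.844 to 1.13 CPM in NSI and 2.37 to 3.22 CPM in siFOXA1, of which CD14 made up 2.74 CPM. PTPRC, the marker common to leukocytes, was at 0.0197 CPM in VCaP siFOXA1 and 0.110 CPM in PC3 siFOXA1. Of the fibroblast markers COL1A1 averaged 20.75 CPM in PC3 NSI and 32.12 CPM in siFOXA1, COL3A1 averaged 0.804 and 3.96 CPM, and DCN and LUM were under 0.1 CPM in both groups. The 4 fibroblast markers summed to 20.3 to 23.6 CPM in PC3 NSI and 34.3 to 38.4 in siFOXA1, and in VCaP to 10.5 to 17.6 and 1.32 to 5.26, where LUM averaged 10.28 CPM in NSI and 0.670 CPM in siFOXA1. The endothelial markers found, VWF and CDH5, summed to 0.168 to 0.185 and 0.129 to 0.298 CPM in the PC3 groups, and to 3.90 to 4.47 and 1.70 to 2.04 CPM in the VCaP groups, in the order NSI and siFOXA1. The part of these markers in the results was not tested.

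Other genes near the OAS genes on chromosome 12 moved in both directions. Within 500 kb of the OAS1-OAS3-OAS2 cluster 24 other genes are listed and 18 were tested in PC3. Of these 4 rose and 2 fell, against 15.0% and 12.1% of all genes tested, and the median log2 fold change was −0.17. With the replicate block 5 rose and 6 fell, against 21.7% and 21.0%: IQCD joined those that rose, and CFAP73, DDX54, RP11-545P7.4 and TPCN1 those that fell. RP1-71H24.1, the antisense gene that spans nearly the whole cluster on the opposite strand, rose by 3.21 in PC3 (2.29 to 21.4 CPM, edgeR adjusted p = 9.89e-06). Since the PC3 counts ignored strand, reads of either strand that fall in its exons cannot be told apart there. Those exons overlap 92 bases of OAS1 exons and no exon of OAS2 or OAS3. In VCaP, where strand was used, it had 2, 0 and 0 counts in NSI, against 0, 1 and 0 counts after knockdown. SDSL, a serine dehydratase-like gene, rose by 1.39 in PC3 (edgeR adjusted p = 8.68e-05). PLBD2 (0.61) and SLC8B1 (0.44) also rose and RPL6 (−0.53) and RITA1 (−0.51) fell, and each of these 4 calls was lost on leaving out a library, for 1 to 3 of the 6 libraries by gene. In VCaP 13 neighbours were tested, 2 rose and 3 fell, beside 22.5% and 23.3% of all genes, and the median was 0.05. TPCN1 (0.68) and RP11-545P7.9 (0.70) rose, and DTX1 (−0.79), RPL6 (−0.43) and RITA1 (−0.23) fell. Of these TPCN1 kept its call whichever library was left out.

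**Figure D5:**
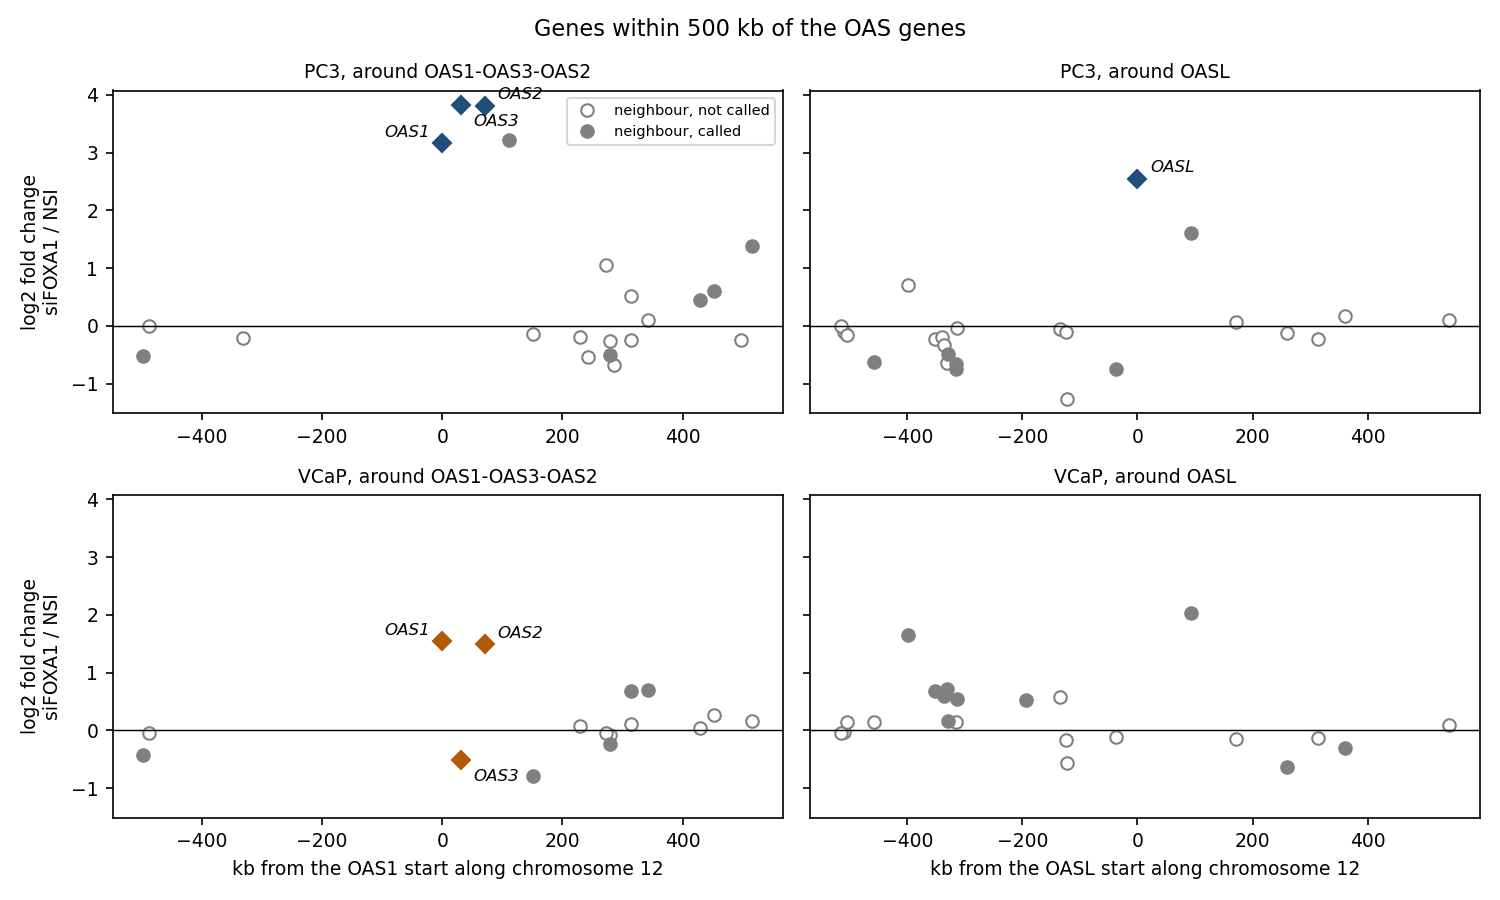
Log2 fold change of siFOXA1 against NSI by distance in kb from the OAS1 start (left) and the OASL start (right), in PC3 (top) and VCaP (bottom). Diamonds are OAS genes and circles are the other genes described within 500 kb, filled where called at an adjusted p under 0.05. In PC3 the diamonds and the antisense gene at 3.21 stand above every other neighbour.

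Around OASL 35 other genes are described, of which 23 were tested in PC3 and 22 in VCaP. In PC3 1 rose and 5 fell (median −0.16), beside 15.0% and 12.1% of all genes. With the replicate block 2 rose and 8 fell, with RNF34 added above and RNF10, MLEC and ANAPC5 below. The one that rose was P2RX7, an ATP-gated channel gene, at 1.61 (edgeR adjusted p = 0.00228), and it rose in VCaP too, at 2.03 (edgeR adjusted p = 1.29e-05). The 5 that fell in PC3 were POP5, UNC119B, RP11-173P15.5, MIR4700 and RP11-216P16.2, with values from −0.75 to −0.49. In VCaP 8 rose and 2 fell (median 0.15), beside 22.5% and 23.3%. Besides P2RX7 the ones that rose were CABP1 (1.65), MLEC (0.68), RP11-173P15.9 (0.59), RP11-173P15.10 (0.72), UNC119B (0.17), ACADS (0.55) and RP11-665J20.1 (0.52). CAMKK2 (−0.64) and RNF34 (−0.30) fell in VCaP. In VCaP the calls of RP11-173P15.9, RP11-173P15.10, UNC119B and RP11-665J20.1, and in PC3 those of POP5, MIR4700 and RP11-216P16.2, were lost on leaving out a library, for 1 to 6 of the 6 libraries by gene. Over all 13 alternatives in VCaP, the call was lost in 12 for UNC119B, 10 for RP11-665J20.1 and 7 for RP11-173P15.10. For each of these genes DESeq2 and library size alone were among them.

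The genes whose levels over the 12 libraries were most like each member are given by Pearson's r of log2(CPM + 0.5), among the 17831 genes that averaged 1 CPM or more over the libraries. The 12 points fall into 4 groups and share their libraries and depth, so r mostly reflects the group means. For OAS1 they were TCAF2 (0.994), RGAG4 (0.993) and RBM43 (0.992). For OAS2 they were GBP1 (0.999), IFI44L (0.999) and IL7R (0.999), all far lower in VCaP than in PC3. For OAS3 they were IFIH1 (0.990), HERC6 (0.987) and SAMHD1 (0.987), with 9.19, 13.4 and 47.3 CPM in PC3 NSI and 12.0, 20.6 and 52.4 in VCaP NSI. For OASL they were the noncoding genes RP11-371I1.2 (0.999), BISPR (0.999) and RP4-562J12.2 (0.999). Among the members r ran from 0.63 for OAS3 with OASL to 1.00 for OAS2 with OASL. OAS2 lies next to OAS3 and 8.01 Mb from OASL. In the VCaP groups OAS2 (0.0989 and 0.288 CPM) and OASL (0.0428 and 0.129 CPM) averaged under the pseudocount of 0.5. The VCaP libraries thus sit close together at the low end of both genes, and little is read from their r.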

How the data were processed

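Per the file headers, the authors made the estimated counts with featureCounts from GENCODE v28lift37 basic exons on GRCh37, dividing fragments that mapped to several places or genes, so 54.8% to 75.2% of nonzero values per library are not whole. Per the submitters' processing notes, STAR 2.7.3a and Subread 2.0.0 were used. The deposited gene lengths, in bases, gave the levels per kilobase. Counts were rounded and fitted in edgeR 4.0.16 (R 4.3.3) with TMM factors (0.953 to 1.06), filterByExpr and quasi-likelihood tests, two-sided, with Benjamini-Hochberg adjustment over all genes tested and calls at 0.05. The 6 libraries of a line were fitted apart from the other line, and the difference between lines on all 12. CPM are depth-scaled with factors over all 12 libraries. Fits were tested on simulated data. Alternatives covered normalization, the filter, DESeq2 1.42.0, the replicate block and each library left out.

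The members and gene lists were chosen with earlier results of these data known. Named genes were FOXA1, the 4 pathway genes, the 3 called genes with the largest change per list and line, the 3 most alike genes per member and called neighbours within 500 kb. Some genes of the lists, markers and neighbourhoods are not reported here and enter none of their counts or medians. Replicates differed beyond sampling noise (chi-square per degree of freedom of at least 11). In PC3, same-numbered NSI and siFOXA1 libraries deviated together over genes of at least 5 CPM (r = 0.66, 0.72 and 0.30, against −0.11, −0.57 and −0.04 for other numbers), so blocked values stand beside the PC3 results they change. Over all genes tested these r were 0.15, 0.31 and 0.09. Where the numbers come from is not given in the sources used here. Intervals on counts cover counting error only. The common coefficient of variation between libraries, which edgeR calls biological, was 15% in PC3 and 9.9% in VCaP. The SE of a gene also depends on its own spread and counts: in VCaP it was 0.32 for OAS2 and 0.06 for OAS3.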

Additional observations from a re-analysis of the deposited data

Results flagged for a closer look

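The results here stand out because the change after FOXA1 knockdown differed between the lines. Each value is the VCaP log2 fold change minus the PC3 log2 fold change, from the fit of all 12 libraries. Line, dose, medium, kit and strand use cannot be told apart in any of them.

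For the OAS genes the value is a description: −1.58 for OAS1, −2.28 for OAS2 and −4.31 for OAS3. For FOXA1, the target, it was −1.93. In the 2-5A pathway it was −0.72 for AKAP7 and −0.92 for ENPP1, the last because ENPP1 fell further in VCaP. Among sensors of nucleic acid it was −3.61 for IFIH1, −3.75 for DDX58, −2.80 for EIF2AK2, −1.85 for TLR3 and −6.37 for ZBP1. The ZBP1 value ran from −7.87 without PC3 NSI replicate 1 to −5.61 without VCaP NSI replicate 2, and lay nearer the latter without VCaP siFOXA1 replicate 3. ZBP1 did not pass the filter on low counts in VCaP. It entered the fit of all 12 libraries only through PC3 siFOXA1, where it is high, so its value is a description. TMEM173, at 1.33, was the one gene named here that rose more in VCaP. In the receptor and ISGF3 pathway it was −2.48 for STAT2, −0.55 for IRF9, −1.72 for SOCS1 and −4.00 for USP18. Among the classical interferon-stimulated genes it was −2.03 for IFIT3, −5.29 for MX2, −0.96 for IFI44, −3.60 for RSAD2, −4.25 for HERC5 and −4.54 for CMPK2. MX2 did not pass the filter on low counts in VCaP (0.106 CPM in NSI and 0.0853 CPM in siFOXA1). The calls of 3 genes depended on single libraries, with adjusted p up to 0.163 for IRF9, 0.0892 for SOCS1 and 0.0567 for MX2 when a library was left out. Groups of 3 libraries are too small for a check of single outlying values.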

How the results depend on the processing

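The fold changes of the OAS genes kept their direction under every alternative run: in PC3 as given above, and in VCaP 1.49 to 1.6 for OAS1, 1.34 to 1.61 for OAS2 and −0.56 to −0.46 for OAS3. The OAS1 difference between the lines was −1.81 to −1.49 when a library was left out. With library size alone its per-kilobase level in VCaP NSI was 0.962 against 0.941. In PC3, 7149 genes were called, 11297 with the replicate block, and 3945 to 7592 when a library was left out (4602 without NSI replicate 3 and 3945 without siFOXA1 replicate 1). Interferon genes called in PC3 numbered 2, against 4 with no filter and 1 in the fit of all 12 libraries. In that fit IFNB1 did not pass the filter on low counts. Of the 3 most alike genes, 1 was shared for OAS2 and for OASL with a pseudocount of 2, and 1 for OASL at a minimum of 5 CPM. The sign turned for PDE12 in VCaP with upper-quartile factors (0.02) and for ENPP1 between the NSI groups with no filter (−0.08). Upper-quartile factors moved the median of all genes between the NSI groups from −0.07 to 0.22. Apart from the filtering of IFNB1, the cause was not tested in any of these. In VCaP same-numbered libraries gave r of 0.18, −0.05 and 0.41 over genes of at least 5 CPM, and 0.06, 0.04 and 0.28 over all genes tested, so the numbers were not taken to pair them. Blocked, 11482 genes were called in VCaP against 10501, and 8811 against 6760 between the lines. Over the list genes and neighbours described, the block added 10 calls in PC3, all given beside their results. In VCaP it added IFI35, PLBD2 and SPPL3 and took away UNC119B (adjusted p = 0.0522), between the lines it added ABCE1, PDE12, JAK1, RITA1, SLC8B1, RNF10 and ACADS, and between the NSI groups IFIH1 (adjusted p = 0.0429). It changed no other call of these genes. Depth limits OAS2 and OASL in VCaP, with at most 18 and 14 counts per library.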
